A study of Mus musculus with 8 samples.

Results

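The mitochondrial ribosomal protein genes were followed across common monocyte progenitors and monocytes kept on stroma with or without a Notch ligand. The members are the protein-coding genes whose symbol begins with Mrpl or Mrps followed by a number, which gave 76 of the 13388 genes in the deposited table. By the ribosomal protein nomenclature, 50 encode proteins of the large subunit and 25 proteins of the small subunit. Mrps30 and Mrps18a carry a small-subunit name but sit in the large subunit and are counted there. The remaining 1 member, Mrps36, is named as a ribosomal protein but works as a part of the 2-oxoglutarate dehydrogenase complex of the citric acid cycle. Mrpl53 and Mrps34 are not analysed here.

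The mitochondrial ribosome translates the few messenger RNAs of mitochondrial DNA, all of which encode core parts of the respiratory chain and ATP synthase. Its proteins are encoded in the nucleus, made in the cytosol and imported, whereas its ribosomal RNAs are transcribed inside the organelle. Some of these proteins have counterparts in bacterial ribosomes and others exist in mitochondria alone. In human families, inherited loss of single members such as MRPS22 or MRPL44 impairs oxidative phosphorylation.

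All cells came from the bone marrow of wild-type mice. The sorted cells were cMoPs (common monocyte progenitors, which give rise to monocytes) or Ly6C+ classical monocytes. They spent 6 hours on OP9-DLL1 cells or on OP9 cells, with 2 libraries in each of the 4 groups: cMoPs on OP9-DLL1, cMoPs on OP9, monocytes on OP9-DLL1 and monocytes on OP9. OP9 is a mouse bone marrow stromal line, and OP9-DLL1 is that line displaying DLL1, a ligand of Notch receptors. Values are CPM, each gene's reads scaled by the authors to a common library size, and fold changes are log2 differences of the group means ± SE.

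The libraries held 47316323 to 62459962 reads in genes, and every member had at least 1 CPM in at least 2 libraries and was tested. The 8 progenitor markers in the table (of 9 listed) summed to 15065 to 22392 CPM in the 4 cMoP libraries and to 335 to 789 CPM in the 4 monocyte libraries. The 9 monocyte markers summed to 6757 to 8223 CPM in cMoPs and to 27741 to 44853 CPM in monocytes, so the cell labels match their defining genes. Ly6c2, which is on the monocyte list, was higher in cMoPs. The monocyte OP9 libraries differed most from each other, with 1445 of all 13374 tested genes over 2-fold apart, against 724 to 804 in the other groups. Since the RNA was from bulk samples, fewer cells of a type and less RNA per cell cannot be told apart, and CPM gives a gene's share of a library and not its amount per cell.

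Promoter sequences are shown for 6 members that stand for the patterns described next. Mrpl12 and Mrps2 were among the members furthest above monocytes in cMoPs, and Mrps22 is a member known from human disease. Mrpl17 and Mrpl20 were lower in monocytes on OP9-DLL1, and Mrpl52 ran against the other members. Each is a stretch of 160 bases before the RefSeq start of the gene (GRCm38.p6), placed outside all annotated exons and written 5′ to 3′ on the gene's strand. Capitals mark matches to the motif of nuclear respiratory factor 1 (NRF1) in Mrpl12 and Mrpl17, the ETS family in Mrps22 and Mrpl52, and the E-box in Mrpl20, while Mrps2 holds none of the 4 motifs searched.
Mrpl12, chr11:120484453-120484612, + strand: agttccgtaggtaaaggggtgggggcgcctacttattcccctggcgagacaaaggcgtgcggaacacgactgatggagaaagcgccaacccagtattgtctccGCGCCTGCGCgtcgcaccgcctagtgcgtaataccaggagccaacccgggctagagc
Mrps2, chr2:28467906-28468065, + strand: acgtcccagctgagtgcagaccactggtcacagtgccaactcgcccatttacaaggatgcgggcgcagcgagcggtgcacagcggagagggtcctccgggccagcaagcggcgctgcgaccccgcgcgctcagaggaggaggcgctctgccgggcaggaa
Mrps22, chr9:98601680-98601839, - strand: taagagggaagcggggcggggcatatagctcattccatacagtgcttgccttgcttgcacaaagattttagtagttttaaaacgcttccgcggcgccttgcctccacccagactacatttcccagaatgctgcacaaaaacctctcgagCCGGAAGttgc
Mrpl17, chr7:105811100-105811259, - strand: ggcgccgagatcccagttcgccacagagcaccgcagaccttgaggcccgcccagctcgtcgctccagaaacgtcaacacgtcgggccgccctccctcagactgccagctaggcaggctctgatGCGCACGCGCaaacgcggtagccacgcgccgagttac
Mrpl20, chr4:155802718-155802877, + strand: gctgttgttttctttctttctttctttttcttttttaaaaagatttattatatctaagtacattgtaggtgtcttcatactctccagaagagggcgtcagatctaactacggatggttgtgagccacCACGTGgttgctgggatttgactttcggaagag
Mrpl52, chr14:54426749-54426908, + strand: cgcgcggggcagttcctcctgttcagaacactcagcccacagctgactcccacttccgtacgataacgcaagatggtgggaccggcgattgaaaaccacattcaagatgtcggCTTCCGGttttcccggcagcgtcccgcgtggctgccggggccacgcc

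The motifs were searched on both strands of the RefSeq promoter windows, which span 250 bases before to 50 after each start and were found for 68 of the 76 members. Only the first listed window of each gene was searched, and 3 members had more than 1. The NRF1 motif, GCGC followed by any base and TGCGC, was present in 13 of the 68 (19.1%). It was present in 4.78% of the first windows of all 27025 mouse genes with a window, and in 11.6% of those of 8698 coding genes in the table. The ETS motif, CCGGAAG, bound by GABPA among others, was present in 24 members (35.3%), against 9.12% of all promoters and 20.3% of the coding genes in the table. The YY1 motif, AAGATGGCG, was present in 8 members (11.8%), against 1.49% and 3.66%. The E-box of MYC, MAX and other factors, CACGTG, was present in 5 members (7.35%), against 7.24% and 10.6%. No 2 matches of different motifs overlapped in a member. For cMoPs over monocytes, members with the NRF1 motif had median log2 fold changes of 0.83 on OP9-DLL1 and 0.74 on OP9, and the 55 without it had 0.81 and 0.54. Members with the ETS motif had 0.60 and 0.39, and the 44 without it had 0.91 and 0.68. Members with the YY1 motif had 0.93 and 0.55, and the 60 without it 0.81 and 0.59. Members with the E-box had 0.81 and 0.42, and the 63 without it 0.81 and 0.59. For OP9-DLL1 over OP9 in monocytes, the medians with and without each motif were -0.11 and -0.23 for NRF1, -0.17 and -0.17 for ETS, -0.41 and -0.15 for YY1 and -0.39 and -0.16 for the E-box. None of these differences was tested. A match is a run of letters and was not measured as a binding site.

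Most mitochondrial ribosomal protein genes were more abundant in cMoPs than in monocytes on either stroma. The median member level in log2 CPM was 6.96 and 6.98 in the cMoP libraries on OP9-DLL1 and 6.81 and 6.88 in those on OP9. In monocytes it was 6.24 and 6.27 on OP9-DLL1 and 6.54 and 6.33 on OP9, so the cMoP and monocyte libraries did not overlap. The members together took 1.23% and 1.28% of reads in cMoPs on OP9-DLL1 and 1.19% and 1.25% in cMoPs on OP9. They took 0.65% and 0.699% in monocytes on OP9-DLL1 and 0.787% and 0.735% in monocytes on OP9. Both subunits followed this division. The large-subunit genes summed to between 8610.3 and 9376 CPM in cMoPs and between 5089.9 and 6274 CPM in monocytes, and the small-subunit genes to between 2569 and 2966 CPM in cMoPs and between 1683 and 2263 CPM in monocytes.

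**Figure D1:**
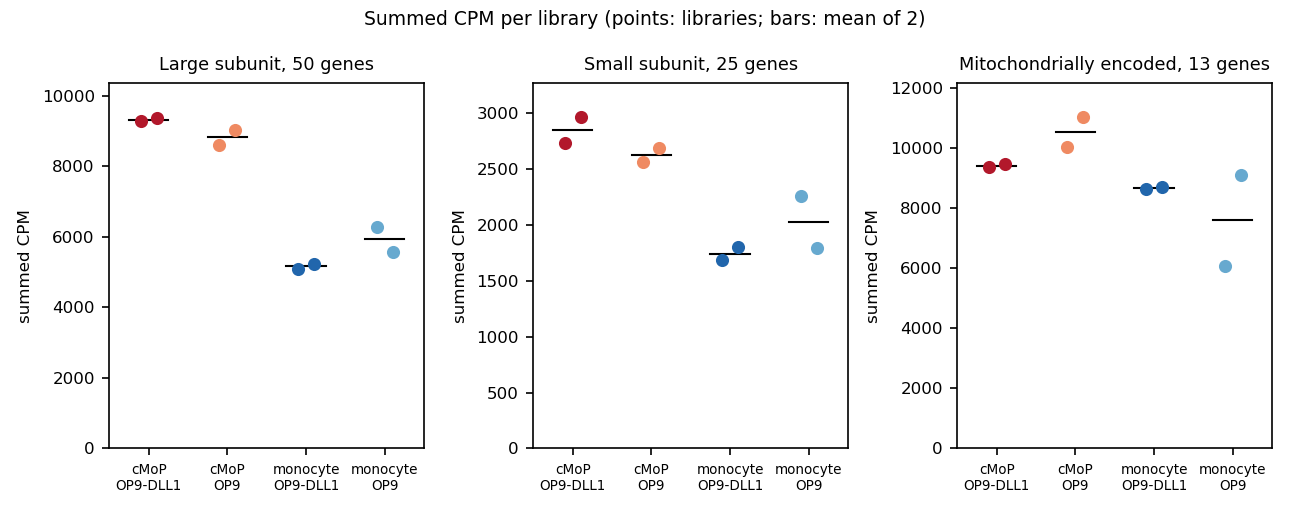
Summed CPM in each library (points, with a bar at the mean of 2) of the large-subunit members, the small-subunit members and the mitochondrially encoded genes, in the 4 groups. The cMoP libraries lie above every monocyte library in each panel. For the mitochondrially encoded genes the lowest cMoP library had 9361 CPM, and monocytes on OP9 reached 6084 and 9094 CPM, the widest gap between replicates.

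On OP9-DLL1, 65 of the 76 members were higher in cMoPs than in monocytes and 1 was lower (limma-trend, Benjamini-Hochberg adjusted p under 0.05), where 28.2% of all genes tested were higher and 29.2% lower (57.4% in either direction). The median member log2 fold change was 0.83 (quartiles 0.58 and 1.25), beside -0.01 over all genes. On OP9, 55 members were higher and 3 lower, where 28.8% of all genes were higher and 27.7% lower (56.5% in either direction). The median there was 0.61 (quartiles 0.34 and 1.01), beside 0.01 over all genes. Without the second monocyte OP9 library 51 members were higher and 8 lower there, where 58.4% of all genes passed. Both cMoP libraries lay above both monocyte libraries for 72 members on OP9-DLL1 and below them for 2, against 41.1% and 41.7% of all genes, and on OP9 this held for 63 and 4 members, against 39.9% and 38.5% of all genes. The 53 members higher on both stromas made up 81.5% of those higher on OP9-DLL1 and 96.4% of those higher on OP9. The matching overlap over all genes was not counted, so these shares cannot be read as particular to the members. The 5 stromal markers in the table (of 12 listed) summed to 0.582 to 2.36 CPM in cMoPs and to 4.24 to 21 CPM in monocytes, and the 9 neutrophil markers to 642 to 728 CPM in cMoPs and 823 to 1208 CPM in monocytes. The 2 T and NK cell markers (of 5 listed) moved with the members, at 179 to 322 CPM in cMoPs and 1.27 to 2.23 CPM in monocytes, nearly all of it Nkg7. The 1 B cell marker in the table (of 4), Cd79b, had 44.3 to 63.1 CPM in cMoPs and 10.9 to 18 CPM in monocytes. The 3 dendritic cell markers (of 6) summed to 0.763 to 1.76 CPM in cMoPs and 5.67 to 32.9 CPM in monocytes, and the 1 erythroid marker (of 5) had 0.189 to 2.47 CPM and 0.0093 to 0.864 CPM. The part of these markers in the counts was not tested. The labels do not say that the replicates came from separate animals or cultures, so these p-values measure only the spread between the samples, which may be technical.

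The subunits gave similar counts. In the large subunit 44 of 50 members were higher in cMoPs on OP9-DLL1 and 1 lower (median 0.83), and 36 were higher and 2 lower on OP9 (median 0.58). In the small subunit 20 of 25 were higher and 0 lower on OP9-DLL1 (median 0.85). On OP9, 18 were higher and 1 lower (median 0.78). On OP9-DLL1, 21 of the 25 had an unadjusted p under 0.05, of which 1 was lower. At that threshold 4120 of all 13374 genes were higher and 4237 lower there. Members with a bacterial counterpart had medians of 0.82 on OP9-DLL1 and 0.61 on OP9, and those specific to mitochondria had 0.85 and 0.71. Small-subunit genes spread further at the upper end, with an upper quartile of 1.58 on OP9-DLL1, against 1.10 for the large subunit; the difference between subunits was not tested.

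**Figure D2:**
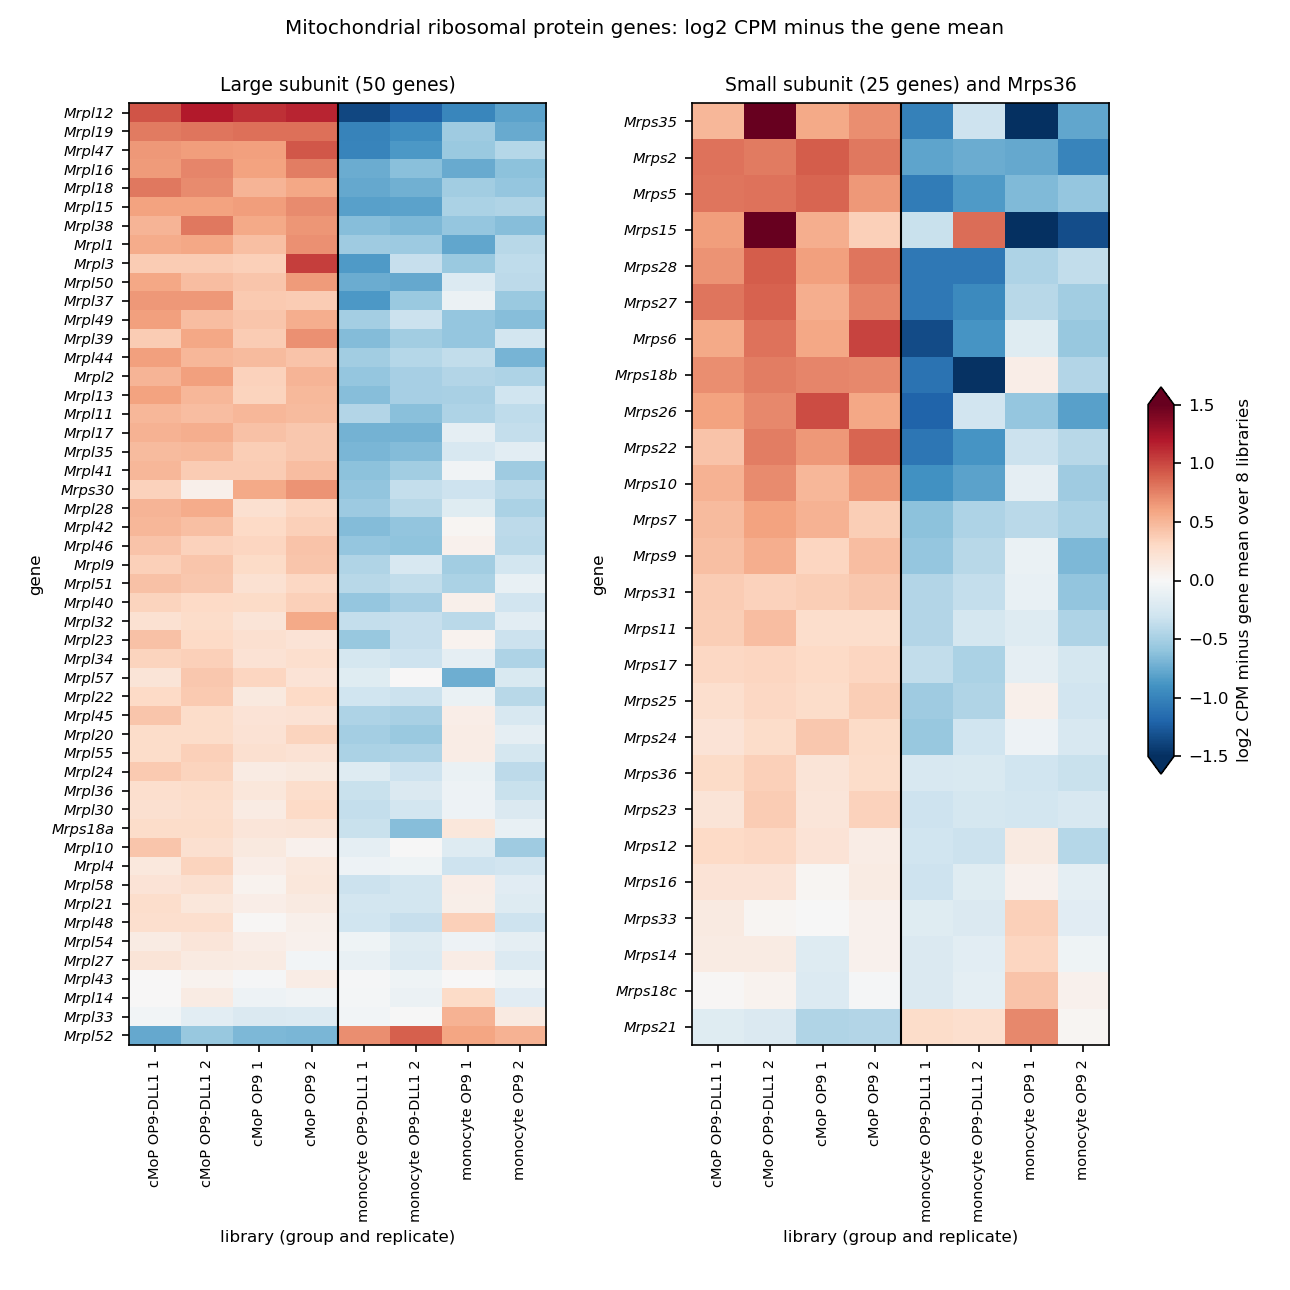
Log2 CPM of each member minus its mean over the 8 libraries (colour), with libraries in columns and genes in rows ordered by the difference of cMoPs and monocytes. Red in the 4 cMoP columns and blue in the 4 monocyte columns runs through most rows, Mrpl12 leads the large subunit, and Mrpl52 and Mrps21 at the foot of the 2 panels have the colours the other way round.

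Mrpl12 showed the largest change of the large subunit. It encodes the protein of the flexible stalk that brings translation factors to the ribosome, and it is also known to bind the mitochondrial RNA polymerase. The gene (ENSMUSG00000039640, chromosome 11, 120484613 to 120489065, mm10) had 468 and 558 CPM in cMoPs on OP9-DLL1 and 521 and 539 CPM in cMoPs on OP9. In monocytes it had 94.3 and 104 CPM on OP9-DLL1 and 124 and 140.1 CPM on OP9. All 4 cMoP libraries thus stood above the 4 monocyte libraries, by a log2 fold change of 2.37 ± 0.12 on OP9-DLL1 (limma-trend adjusted p = 8.4e-07) and 2.01 ± 0.12 on OP9 (adjusted p = 2.8e-06). Its neighbours at the base of the stalk rose less. Mrpl11 rose by 1.02 ± 0.12 on OP9-DLL1 and 0.91 ± 0.12 on OP9, and Mrpl10, which anchors the stalk, by 0.40 ± 0.15 and 0.47 ± 0.15.

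Among other large-subunit proteins with a bacterial counterpart, Mrpl19, Mrpl16 and Mrpl18 rose in cMoPs. Mrpl19 had log2 fold changes of 1.76 ± 0.12 on OP9-DLL1 and 1.47 ± 0.12 on OP9, though 36.0% of its exon bases overlap Gcfc2 on the opposite strand. Mrpl16 rose by 1.37 ± 0.12 on both stromas, to 158 and 168 CPM in cMoPs on OP9-DLL1, against 60.4 and 65.6 CPM in monocytes on OP9-DLL1. Mrpl18, of the central protuberance, had 648 and 609 CPM in cMoPs on OP9-DLL1 and 534 and 559 CPM in cMoPs on OP9, against monocyte values of 219 and 227 CPM on OP9-DLL1 and 261 and 249 CPM on OP9. These values do not overlap between the cell types. Of the large-subunit proteins specific to mitochondria, Mrpl44, which is related to RNase III enzymes, rose by 1.04 ± 0.14 on OP9-DLL1 and 0.98 ± 0.14 on OP9. Mrpl58, a peptidyl-tRNA hydrolase built into the subunit, rose by 0.52 ± 0.12 on OP9-DLL1, whereas on OP9 its value was 0.15 ± 0.12 (adjusted p = 0.32).

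In the small subunit, Mrps2 and Mrps5 rose on both stromas. Mrps2 had 70.1 and 68.6 CPM in cMoPs on OP9-DLL1 and 74.5 and 68.7 CPM in cMoPs on OP9. In monocytes it had 23.1 and 23.7 CPM on OP9-DLL1 and 23.3 and 20.1 CPM on OP9, with no overlap. The log2 fold changes of Mrps2 were 1.57 ± 0.13 on OP9-DLL1 (adjusted p = 1.2e-05) and 1.72 ± 0.13 on OP9 (adjusted p = 8.7e-06). Mrps5 rose by 1.76 ± 0.13 and 1.38 ± 0.13. Mrps12, which lies at the decoding centre, rose by 0.61 ± 0.17 on OP9-DLL1 and had 0.31 ± 0.17 on OP9 (adjusted p = 0.14).

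Mrps27, a pentatricopeptide repeat protein, and Mrps28 each had a larger fold change on OP9-DLL1 than on OP9. Mrps28 had 107 and 126 CPM in cMoPs on OP9-DLL1, against 31.9 and 32 CPM in monocytes on OP9-DLL1 (log2 fold change 1.86 ± 0.13). On OP9 it had 103 and 117 CPM in cMoPs, against 48.6 and 51.9 CPM in monocytes (1.13 ± 0.13). Mrps27 rose by 1.85 ± 0.13 on OP9-DLL1 and 1.12 ± 0.13 on OP9, and Mrps6 by 1.80 ± 0.25 and 1.17 ± 0.25. Mrps22 rose by 1.58 ± 0.16 and 1.13 ± 0.16. Whether the 2 stromas differed is the test of the difference of responses, given further on, and no member passed it.

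Mrpl52 ran the other way. It belongs to the large subunit and has no bacterial counterpart. The gene (ENSMUSG00000010406, chromosome 14, 54426909 to 54429756) had 90.4 and 104 CPM in cMoPs on OP9-DLL1 and 96.8 and 95.8 CPM in cMoPs on OP9. In monocytes it had 249 and 286 CPM on OP9-DLL1 and 232 and 221 CPM on OP9, above every cMoP library. Its log2 fold change was -1.46 ± 0.12 on OP9-DLL1 (limma-trend adjusted p = 1.1e-05) and -1.24 ± 0.12 on OP9 (adjusted p = 3.5e-05). Mrps21 fell by 0.82 ± 0.19 on the log2 scale on OP9 (adjusted p = 0.0054), and its value on OP9-DLL1 was -0.46 ± 0.19 (adjusted p = 0.065). Mrpl33 fell by 0.54 ± 0.14 on OP9 (adjusted p = 0.0091), with -0.08 ± 0.14 on OP9-DLL1. The monocyte OP9 replicates of Mrps21 stood apart, at 241 and 149 CPM.

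The Mrps18 genes encode 3 related proteins with different places in the ribosome, Mrps18a in the large subunit and Mrps18b and Mrps18c in the small one. Mrps18b (chromosome 17, 35910379 to 35916389) had 77.8 and 81.7 CPM in cMoPs on OP9-DLL1 and 80 and 79.2 CPM in cMoPs on OP9. In monocytes it had 22.3 and 17.2 CPM on OP9-DLL1 and 51.2 and 35.4 CPM on OP9. Its level was thus nearly the same in all cMoP libraries and lowest in both monocyte libraries on OP9-DLL1, and cMoPs exceeded monocytes by 2.02 ± 0.19 on OP9-DLL1 and 0.90 ± 0.19 on OP9. Mrps18a rose by 0.75 ± 0.14 on OP9-DLL1 and had 0.16 ± 0.14 on OP9 (adjusted p = 0.35). Mrps18c had 0.21 ± 0.14 on OP9-DLL1 and -0.36 ± 0.14 on OP9, neither past the threshold (adjusted p = 0.23 and 0.059), and 23.2% of its exon bases are shared with the annotated gene Gm43511.

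No call was made on either stroma for 6 members: Mrpl14, Mrpl27, Mrpl43, Mrps14, Mrps18c and Mrps33. Mrpl43 was the flattest of these, with 36.5 to 39.9 CPM in cMoPs and 35.3 to 37.3 CPM in monocytes, although 33.4% of its exon bases overlap Twnk. Higher in cMoPs on OP9-DLL1 but with no call on OP9 were 12 members, among them Mrps18a, Mrpl20, Mrpl58 and Mrps12, and the reverse held for 2, Mrps15 and Mrpl57. Mrps36, the member outside the ribosome, rose by 0.56 ± 0.11 on OP9-DLL1 and 0.54 ± 0.11 on OP9.

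Fewer members passed the test for contact with DLL1 than for cell type. In cMoPs, 0 members were higher and 0 lower on OP9-DLL1 than on OP9 by limma-trend, where 0.77% of all genes passed (0.464% higher and 0.307% lower). Of all 13374 genes, 1267 had an unadjusted p under 0.05, and of the members 0 did. The voom fit called 0 as well. The median log2 fold change was 0.08, beside 0.01 over all genes, with 56 positive and 20 negative values, against 6848 and 6526 over all genes. The libraries did not overlap for 33 members higher on OP9-DLL1 and 4 lower, against 25% and 21.7% of all genes. The highest were Mrps35 at 0.70 ± 0.52 and Mrps15 at 0.65 ± 0.43, and the lowest Mrps30 at -0.42 ± 0.24 and Mrpl3 at -0.32 ± 0.27. Replicate spread was large for these, as Mrps35 had 13.5 and 42.8 CPM in cMoPs on OP9-DLL1, against 14.2 and 15.5 CPM in cMoPs on OP9.

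In monocytes, 1 member was higher and 6 were lower on OP9-DLL1 than on OP9, where 3.36% of all genes were higher and 3.03% lower (6.39% in either direction). With each library centred on its median, 1 member was higher and 10 were lower, where 2.7% of all genes were higher and 4.08% lower. The median was -0.17, beside 0.01 over all genes, with 63 values negative and 13 positive, against 6491 and 6883 over all genes. At an unadjusted p under 0.05, 25 members were lower and 1 higher, against 1411 and 1504 of all 13374 genes. The summed member level was 6833 and 7094 CPM on OP9-DLL1, against 8595 and 7421 CPM on OP9, so the groups did not overlap. Taken singly, 7 members lay higher and 38 lower on OP9-DLL1 with no overlap, against 24.2% and 23.5% of all genes. The 2 OP9 libraries were further from each other than the nearer one was from the OP9-DLL1 libraries.

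Mrps18b fell furthest, by 1.12 ± 0.19 on the log2 scale (limma-trend adjusted p = 0.011), to 22.3 and 17.2 CPM on OP9-DLL1, against 51.2 and 35.4 CPM on OP9. Mrps28 fell by 0.65 ± 0.13, to 31.9 and 32 CPM on OP9-DLL1, against 48.6 and 51.9 CPM on OP9 (adjusted p = 0.022). Mrps27 fell by 0.54 ± 0.13, to 22.4 and 24.2 CPM, against 35.1 and 32.6 CPM on OP9 (adjusted p = 0.044). In all 3 small-subunit genes both OP9-DLL1 libraries lay below both OP9 libraries. Of the large subunit, Mrpl20 fell by 0.52 ± 0.11, to 226 and 219 CPM on OP9-DLL1, against 347 and 293 CPM on OP9 (adjusted p = 0.031). Mrpl35 fell by 0.46 ± 0.10, to 114 and 117 CPM, against 155 and 164 CPM on OP9 (adjusted p = 0.03), and Mrpl17 fell by 0.46 ± 0.11, to 158 and 158 CPM, against 235 and 202 CPM on OP9 (adjusted p = 0.04). Bacterial counterparts of Mrpl20, Mrpl35 and Mrpl17 bind the large ribosomal RNA. Mrpl12 had -0.42 ± 0.12 (adjusted p = 0.085).

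Mrps15 was the 1 member that rose, by 2.05 ± 0.43 (adjusted p = 0.026). It had 55.5 and 125 CPM in monocytes on OP9-DLL1, against 14.6 and 27.8 CPM in monocytes on OP9. In cMoPs it had 108 and 209 CPM on OP9-DLL1, against 102 and 89.6 CPM on OP9. Replicate 1 minus replicate 2 was -0.95 on the log2 scale in cMoPs on OP9-DLL1, -1.17 in monocytes on OP9-DLL1 and -0.93 in monocytes on OP9, so replicate 2 was the higher in 3 of the 4 groups. Mrps35 and Gadd45gip1, a mitoribosome protein under another name, shared that order in the same groups, with 4.73 and 7.72 CPM for Mrps35 and 3.05 and 6.71 CPM for Gadd45gip1 in monocytes on OP9-DLL1.

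The calls in monocytes depended on single libraries, and so did the share of all genes that passed. The median member log2 fold change was -0.29 without the second monocyte OP9 library and -0.11 without the first. It was -0.22 without the second monocyte OP9-DLL1 library and -0.14 without the first. Leaving out any 1 cMoP library, which changes only the estimate of the spread, left it at -0.17. The authors' deposited table lists 2 members as lower and 0 as higher at an adjusted p under 0.05 in this comparison, where 4.28% of genes passed.

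Other values moved with the monocyte OP9 libraries. In the first of these 56 of the 76 members were higher than in the second, by a median of 0.22 on the log2 scale, whereas in the other groups the medians were -0.02, -0.07 and -0.06. Top2a, a gene of dividing cells, had 106 CPM in that library and 351 CPM in the second, and the 13 mitochondrially encoded genes summed to 6084 and 9094 CPM. The same 5 stromal markers summed to 4.24 to 16.7 CPM in monocytes on OP9-DLL1, against 18.2 to 21 CPM on OP9. Of these 5, Pdgfrb ran the other way, with 2.9 and 4.24 CPM on OP9-DLL1, against 0.0346 and 0.214 CPM on OP9 (limma-trend adjusted p = 0.012). In the first OP9 library 1 read was worth 0.0231 CPM, so its value of 0.0346 CPM lies at the floor of the counts. The 2 megakaryocyte markers in the table (of 4 listed) summed to 12.7 to 22.2 CPM on OP9-DLL1, against 113 to 195 CPM on OP9. Each of these 7 markers had reads in every monocyte library, though some values lay near that of 1 read. Their part in the result was not tested.

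The difference of the DLL1 responses, cMoPs minus monocytes, was passed by 0 members in limma-trend and 0 in the voom fit, where 0.0523% of all genes passed, 0.0299% with a higher and 0.0224% with a lower response in cMoPs. Unadjusted p was under 0.05 for 1309 of all 13374 genes, 693 with a higher response in cMoPs and 616 with a lower one. Among members this held for 20, 19 with a higher response in cMoPs and 1, Mrps15, with a lower one. The median difference was 0.26, beside -0.00 over all genes. Mrps18b had 1.12 ± 0.27 (adjusted p = 0.24), Mrps27 0.73 ± 0.19 (adjusted p = 0.25) and Mrps28 0.73 ± 0.19 (adjusted p = 0.26). Without the second monocyte OP9 library 26 members passed, all higher, where 8.40% of all genes passed. This difference uses the same libraries as the comparisons above it.

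**Figure D3:**
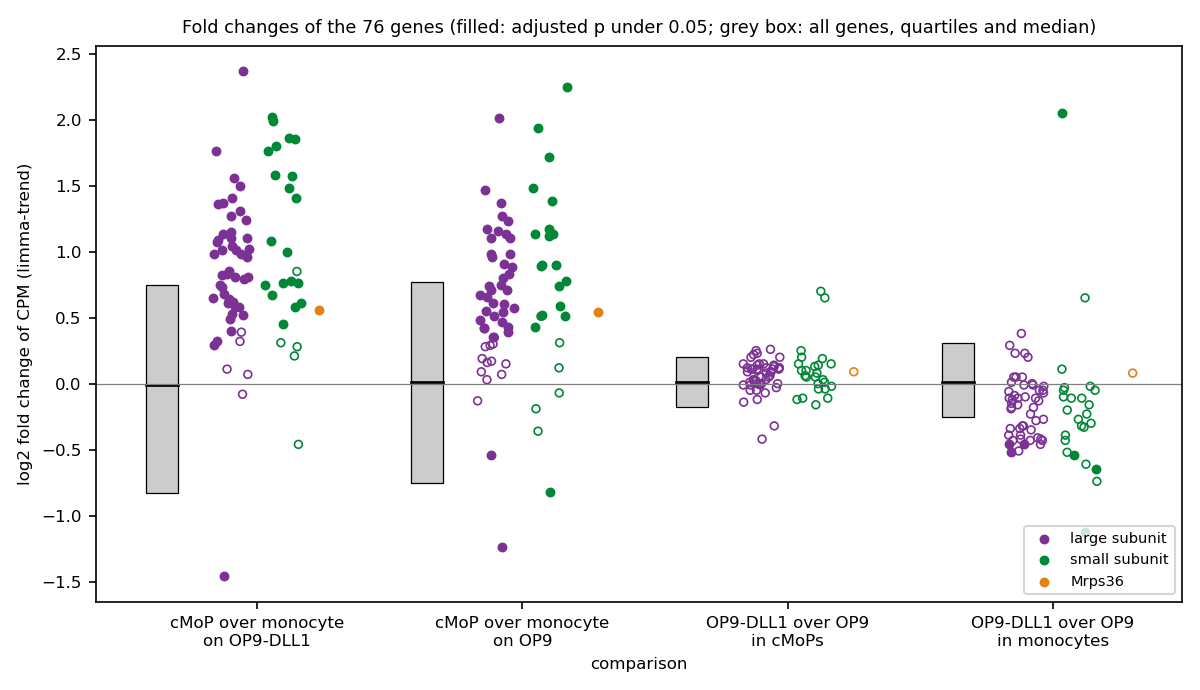
Log2 fold change of each member in 4 comparisons (vertical axis), large subunit in purple, small subunit in green and Mrps36 in orange, with filled points where the limma-trend adjusted p was under 0.05 and a grey box for the quartiles and median of all genes tested. Most points lie above 0 for cMoPs over monocytes, while for OP9-DLL1 over OP9 the points in cMoPs are all open and those in monocytes hold 7 filled points, Mrps15 highest and Mrps18b lowest.

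Taking the order of the 4 group means, 39 of 76 members ran cMoPs on OP9-DLL1, cMoPs on OP9, monocytes on OP9, monocytes on OP9-DLL1 from high to low. A further 18 had the 2 cMoP groups exchanged. The monocyte group on OP9-DLL1 was the lowest for 60 members, and the cMoP group on OP9-DLL1 was the highest for 49 and the lowest for 0. Neighbours in this order within a cell type did not pass the test for 69 members in monocytes and for all 76 in cMoPs.

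Levels between members are compared per kilobase of exon. Averaged over the 8 libraries, Mrpl18 had 296 CPM per kb, Mrpl28 234, Mrpl36 229, Mrpl12 208 and Mrps21 205, the highest of the 76. The lowest were Mrps24 at 3.92, Mrps26 at 2.13, Mrps35 at 1.54, Mrpl3 at 1.42 and Mrps30 at 0.626 CPM per kb. Dividing by the longest coding transcript put Mrpl42 first, at 512 CPM per kb, followed by Mrpl20 and Mrpl52, and left the same 5 genes lowest. Of the low members, Mrps26 rose in cMoPs by 1.41 ± 0.30 on OP9-DLL1 and 1.48 ± 0.30 on OP9, and Mrps30 by 0.68 ± 0.24 and 0.98 ± 0.24.

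Read counts of some members cannot be separated from those of another gene. The table also holds 5 pseudogenes of Mrpl23, Mrpl27, Mrpl48 and Mrps36, whose reads may be shared with these members. The library kit keeps no strand information, and reads from opposite strands of overlapping genes cannot be told apart. The largest such overlap was Mrps25 with Nr2c2, at 69.8% of the exon bases of Mrps25, and Mrps11 and Mrpl46, both members, share 173 exon bases. Mrps25 rose by 0.78 ± 0.14 on OP9-DLL1 and 0.43 ± 0.14 on OP9, and Mrpl46 by 0.98 ± 0.15 and 0.55 ± 0.15.

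The other genes of mitochondrial translation were also higher in cMoPs for the most part. Beside them, 28.2% of all genes were higher and 29.2% lower on OP9-DLL1, and 28.8% were higher and 27.7% lower on OP9. Of 5 mitoribosome proteins under other names, 4 were higher in cMoPs on OP9-DLL1 and 3 on OP9, with 0 lower. Ptcd3 had 74.6 and 74.4 CPM in cMoPs on OP9-DLL1, against monocyte values of 23 and 25.8 CPM on that stroma. Its log2 fold change was 1.61 ± 0.12 on OP9-DLL1 and 1.37 ± 0.12 on OP9. Dap3, a GTP-binding small-subunit protein, rose by 0.44 ± 0.11 and 0.38 ± 0.11. Of 14 translation factors in the table, 10 were higher and 0 lower on each stroma. Tufm, the elongation factor that brings transfer RNA to the ribosome, had 191 and 195 CPM in cMoPs on OP9-DLL1, against monocyte values of 68.6 and 67.9 CPM on that stroma. The elongation factor genes Tsfm and Gfm1 rose by 1.68 ± 0.11 and 1.55 ± 0.15 on OP9-DLL1 and by 1.20 ± 0.11 and 1.57 ± 0.15 on OP9, and Mrrf, the ribosome recycling factor, by 1.07 ± 0.15 and 0.90 ± 0.15. At an unadjusted p under 0.05, 0 genes of the first list were lower on either stroma, and of the translation factors 0 were lower on OP9-DLL1 and 1 on OP9. Of all 13374 genes, 4237 were lower on OP9-DLL1 and 4027 on OP9 at that threshold. The voom fit called 0 genes of either list lower.

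Of 30 assembly and ribosomal RNA modification genes, 14 were higher and 1 lower in cMoPs on OP9-DLL1, and 15 were higher and 1 lower on OP9. The shares of all genes higher were 28.2% on OP9-DLL1 and 28.8% on OP9, and those lower 29.2% and 27.7%. Mrm3, a methyltransferase of the large ribosomal RNA, rose by 2.48 ± 0.21 and 1.49 ± 0.21, and Fastkd2, an RNA-binding protein, by 1.92 ± 0.15 and 1.34 ± 0.15. Gtpbp6 fell by 1.04 ± 0.33 on OP9-DLL1, and Mrm1 fell by 1.28 ± 0.34 on OP9. Mrm3 and Fastkd2 were also the 2 genes of this list that fell in monocytes on OP9-DLL1 relative to OP9, by 0.86 ± 0.21 (adjusted p = 0.047) and 0.64 ± 0.15 (adjusted p = 0.038). In that comparison 3.03% of all genes were lower. Of 15 genes of mitochondrial transcription and RNA processing, 10 were higher and 0 lower on OP9-DLL1 and 11 and 0 on OP9. Prorp, the protein-only RNase P, rose by 1.82 ± 0.21 and 1.21 ± 0.21. Polrmt, the mitochondrial RNA polymerase, had 0.37 ± 0.31 and 0.19 ± 0.31 and did not pass. In this list 0 genes were lower on either stroma at an unadjusted p under 0.05, and 0 in the voom fit.

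The messages that the mitochondrial ribosome translates were counted in the same way. Of 13 mitochondrially encoded genes in the table, 1 was higher and 0 lower in cMoPs on OP9-DLL1 (median 0.08), namely mt-Nd1 at 0.62 ± 0.16, and 5 were higher and 0 lower on OP9 (median 0.42). These are 7.69% and 38.5% higher, against 28.2% and 28.8% of all genes, of which 29.2% and 27.7% were lower. In the summed levels, cMoPs on OP9-DLL1 had 9361 and 9469.7 CPM and cMoPs on OP9 10047 and 11017 CPM. Monocytes had 8646 and 8699 CPM on OP9-DLL1 and 6084 and 9094 CPM on OP9. Neither the unadjusted p nor the voom fit gave any lower gene here (0 of 13 on each stroma), and the voom fit called 7 higher on OP9. The genes named Rpl or Rps had 75 of 94 higher and 7 lower in cMoPs on OP9-DLL1 (median 0.79) and 76 higher and 4 lower on OP9 (median 0.83). These names also cover 9 kinases (Rps6k genes) and 1 binding protein (Rps19bp1) that are not ribosomal. Among the remaining 84 cytosolic ribosomal protein genes, 73 were higher and 2 lower on OP9-DLL1 (median 0.83) and 73 higher and 1 lower on OP9 (median 0.85). In monocytes on OP9-DLL1 relative to OP9, 1 of the 84 was higher and 0 lower (median 0.02). At an unadjusted p under 0.05, 7 of them were lower, against 1411 of all 13374 genes. The voom fit called 1 higher and 1 lower in that comparison, and with each library centred on its median 1 was higher and 2 lower (median -0.06).

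Among 9 listed transcriptional regulators in the table, 5 were higher and 0 lower in cMoPs on each stroma, also with 0 lower at an unadjusted p under 0.05 and in the voom fit. The shares of all genes higher were 28.2% on OP9-DLL1 and 28.8% on OP9, and those lower 29.2% and 27.7%. Myc, whose product is known to drive ribosome synthesis, had 167 and 154 CPM in cMoPs on OP9-DLL1 and 201 and 194 CPM in cMoPs on OP9. In monocytes it had 5.06 and 6.32 CPM on OP9-DLL1 and 15.2 and 20.8 CPM on OP9. All cMoP libraries lay far above the monocyte libraries, by 4.83 ± 0.18 on OP9-DLL1 and 3.48 ± 0.18 on OP9. Myc was the 1 regulator that fell in monocytes on OP9-DLL1, by 1.65 ± 0.18 (limma-trend adjusted p = 0.0014), and 2 of the 9 fell with each library centred on its median. In these fits 3.03% and 4.08% of all genes were lower. Ppargc1b and Pprc1, coactivators of mitochondrial gene expression, rose in cMoPs by 1.57 ± 0.24 and 1.48 ± 0.15 on OP9-DLL1 and by 2.51 ± 0.24 and 1.01 ± 0.15 on OP9. Nrf1 rose by 0.46 ± 0.13 on OP9-DLL1 and had 0.28 ± 0.13 on OP9, and Gabpa had -0.03 ± 0.19 and 0.18 ± 0.19.

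**Figure D4:**
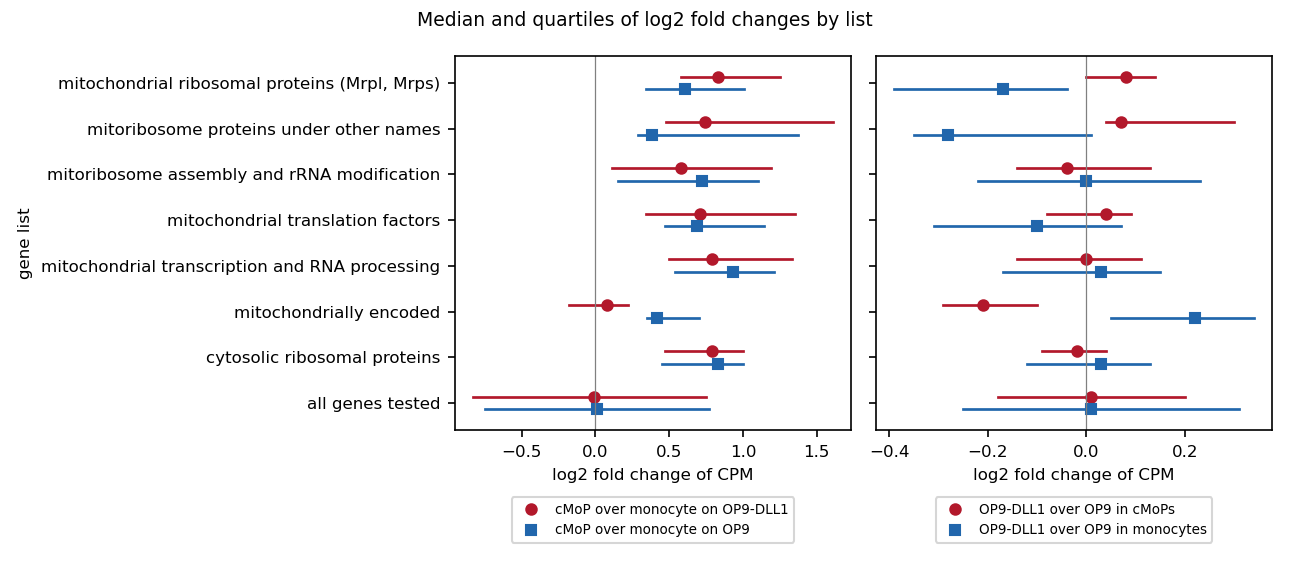
Median (symbol) and quartiles (line) of log2 fold changes for each gene list, for cMoPs over monocytes (left) and OP9-DLL1 over OP9 (right). On the left, the medians of the nuclear-encoded lists lie above 0 on both stromas, while the mitochondrially encoded genes stand at 0.08 on OP9-DLL1 and 0.42 on OP9. On the right, the members stand at -0.17 in monocytes and 0.08 in cMoPs and all genes at 0.01.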

How the data were processed

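Per the labels' protocols, cDNA was prepared with the SMARTer Ultra Low method and read from both ends. The submitters' processing notes name genome build mm10 and, in no stated order, featureCounts 2.0.3 and Subread, STAR 2.7.9a, Salmon 1.5.2, bcl2fastq, limma and edgeR; an annotation is not given in the sources used here. Log2 CPM per library was deposited by the authors, with 0.5 reads added to each count in the form that voom writes, in a table of 13430 entries for 13388 gene identifiers; 42 repeated entries were dropped. Whole reads were recovered for 100.0% of values (tolerance 0.001), and 1 read was worth 0.0151 to 0.0231 CPM. The authors' deposited table also holds their log2 fold changes and p-values, used for counts only.

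The deposited log2 values were tested with limma-trend (limma 3.58.1, R 4.3.3), with 1 mean per group over 8 libraries (4 residual degrees of freedom), two-sided tests and 13374 genes that reached 1 CPM in 2 or more libraries (14 left out). A gene passed at a Benjamini-Hochberg adjusted p under 0.05, over all genes. The fit was tested on simulated data. No 2 replicates agreed within sampling noise. Exon positions are from GENCODE M21 (GRCm38), which held 13375 of the identifiers and all 76 members; promoters are from RefSeq, GRCm38.p6. Figures and motif searches used Python 3.11.15, pandas 2.3.3 and matplotlib 3.10.9. Counts per list are read beside all genes, with no test of a list.

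The members and lists were chosen with earlier results of these data known. Named members are the 8 highest and 8 lowest that passed in each comparison (the 4 highest or lowest, as values, where fewer than 4 passed), the 5 highest and 5 lowest per kb, and Mrpl12, Mrps12, Mrpl11, Mrpl58, Mrps18a, Mrps18b, Mrps18c, Mrps30, Mrps36, Mrpl44, Mrps2 and Mrps5. Up to 4 genes per pathway list were taken by adjusted p. Mrpl14, Mrpl27, Mrps14, Mrps33, Mrps25, Mrpl42, Mrpl46, Mrps11, Gtpbp6, Mrm1, Polrmt, Gabpa, Nrf1, Top2a, Ly6c2, Nkg7, Cd79b and Pdgfrb were named after their values were seen. Alternatives were voom on the recovered reads, sample quality weights, no variance trend, no filter, log2(CPM + 1), centring on the library median, a replicate block, only the 4 libraries compared, and leaving out each library.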

Additional observations from a re-analysis of the deposited data

How the results depend on the processing

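Across the alternatives run, no named value that passed changed sign, 118 calls were lost and 30 gained among 2198 named values, and 40 values that passed in neither fit changed sign. Of the members called, 55 of 66 for cMoPs over monocytes on OP9-DLL1 and 42 of 58 on OP9 passed under every alternative, against 0 of 7 for OP9-DLL1 over OP9 in monocytes. That monocyte count was 2 with sample quality weights, 0 without the variance trend, 11 with each library centred on its median and 0 with only the 4 libraries compared, and 0 to 33 with 1 library left out; its median, -0.17, ran from -0.29 to -0.11. Of all genes, 4.01% passed in that comparison with quality weights, 1.85% without the trend, 6.77% centred and 2.29% with the 4 libraries. The main fit gave 6.39%. With 1 library left out, the share of all genes passing moved in every comparison. Member counts alone therefore cannot separate unstable members from a shift over all genes. Where 1 library is left, its group is assumed to vary like the others. The cause was not tested. Leaving out 1 library gave 0 to 26 calls for the difference of responses (median 0.17 to 0.33, and 0.34 centred), 56 to 71 on OP9-DLL1 (median 0.81 to 0.87, and 0.94 centred), 43 to 64 on OP9 (median 0.49 to 0.71), and 0 in cMoPs (median 0.05 to 0.10).

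Centring each library on its median moved the all-gene median from -0.01 to 0.10 for cMoPs over monocytes on OP9-DLL1 and from 0.01 to -0.07 for OP9-DLL1 over OP9 in monocytes. Counts of the cytosolic list without the kinase genes were added after seeing the data. Deviations of same-numbered libraries correlated at 0.02 to 0.09 over 6 pairs of groups. The labels do not say whether replicate numbers pair the samples, and low correlations over all genes cannot decide it. With the replicate block, 10 members passed in monocytes (1 higher, 9 lower), 0 in cMoPs, 0 for the difference, 70 on OP9-DLL1 and 58 on OP9. The shares of all genes passing were 7.91%, 1.17%, 0.0822%, 59% and 57.4%, in the same order. With 2 libraries a group, small changes between the stromas could go undetected.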
